A study of Mus musculus with 4 samples.

Results

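The perilipins were followed in 4 single-cell RNA sequencing libraries of cultured mouse fat cells. The 5 members were chosen by gene symbol, *Plin1* to *Plin5*, among the 32285 genes counted. The study asked how adipocytes that lose their differentiated state in culture (DFAT cells) differ from adipose stem and progenitor cells (ASPCs), with a single library for each of 4 conditions. DFAT cells (iWAT_DFAT, eWAT_DFAT) came from ceiling culture, in which floating adipocytes attach to the upper wall of a filled flask, from inguinal (iWAT) and epididymal (eWAT) white fat. The iWAT_ASPC and eWAT_ASPC libraries hold cultured cells of the stromal vascular fraction (SVF), the non-adipocyte pellet of the same depots. The study describes the donors as chow-fed C57BL/6J male mice, with no transgene or added agent in any of the 4 groups. Their age and the number of mice per culture were not found in the sources used here for these libraries. Adherent cells were trypsinised and sorted for exclusion of the dead-cell dye 7-AAD before droplet capture.

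Perilipins coat the surface of lipid droplets and decide how far lipases can reach the triglyceride inside. *Plin1* is the main coat protein of adipocytes and, in the resting state, holds ABHD5, the co-activator of the lipase ATGL, away from its partner. *Plin2* is found on droplets of nearly all cell types and is degraded when it is not bound to lipid, *Plin3* moves between cytosol and nascent droplets, *Plin4* is enriched in white adipocytes, and *Plin5* belongs to oxidative tissues such as heart and brown fat. *Plin1* and *Plin4* are known targets of PPARγ, the nuclear receptor that drives adipocyte differentiation.

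Cells were barcodes with 5000 to 75000 UMIs (molecular tags that count captured RNA molecules), 200 to 7500 genes and under 10% mitochondrial UMIs. They numbered 7629 in iWAT_DFAT, 6464 in eWAT_DFAT, 7424 in iWAT_ASPC and 6745 in eWAT_ASPC, with median depths of 22111 to 27617 UMIs. Between 13 and 20 cell barcodes occurred in both libraries of a pair, at most 0.297% of the smaller one. The 10 ASPC markers summed to 6109 UMIs per 1000000 UMIs (CPM) in iWAT_DFAT, 1778 in eWAT_DFAT, 5350.1 in iWAT_ASPC and 4787 in eWAT_ASPC. The sum was thus lowest in eWAT_DFAT. *Dcn* led this list in iWAT_DFAT and *Col1a1* in the other libraries. UMIs of at least 3 ASPC markers were present in 7581, 6105, 7239 and 6540 cells, in the same order. The 9 adipocyte markers summed to 12.9 CPM in iWAT_DFAT, 81.9 in eWAT_DFAT, 2.27 in iWAT_ASPC and 2.73 in eWAT_ASPC. *Lep*, a defining adipocyte gene, had no UMI in any library. The summed markers of other cells ranged over the 4 libraries from 21.3 to 67.5 CPM for endothelial, 5.85 to 112 for mesothelial, 25.0 to 47.9 for pericyte, 1.80 to 29.7 for glial, 16.9 to 63.5 for immune and 739 to 1064 for cycling cells. With 1 library per condition no difference within a depot, and no difference between depots in such a difference, could be tested. All intervals are exact 95% intervals for counting error, and variation between cultures was not measured.

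*Plin1*, *Plin2* and *Plin4* were each at least 2-fold higher in DFAT cells than in ASPCs of the same depot, while *Plin3* was not and *Plin5* was too rare to compare. Over all genes whose higher value reached 5 CPM, 9.91% were at least 2-fold higher and 5.18% at least 2-fold lower in iWAT_DFAT than in iWAT_ASPC. For eWAT_DFAT against eWAT_ASPC these shares were 6.44% and 6.67%. Of the 9 adipocyte markers none reached 5 CPM in iWAT, and the 5 that did in eWAT did so in eWAT_DFAT alone. The limit thus fixed their direction, and no count of this list is given. Not every marker on that list went with *Plin1*: *Adrb3*, the lipolytic adrenergic receptor, was at 0.343 CPM in iWAT_DFAT, 1.93 in eWAT_DFAT, 1.88 in iWAT_ASPC and 1.76 in eWAT_ASPC. Its log2 ratio of DFAT cells over ASPCs was -2.46 (-2.86 to -2.07) in iWAT and 0.13 (-0.09 to 0.35) in eWAT. *Thrsp* rested on 1 UMI in iWAT_DFAT and 6 in iWAT_ASPC, and on 140 in eWAT_DFAT and 1 in eWAT_ASPC. The markers *Adipoq*, *Cidec*, *Retn*, *Car3*, *Acvr1c* and *Cfd* went with *Plin1*, with log2 ratios above 0 in both depots. They ran from 1.66 (*Acvr1c*) to 8.36 (*Cfd*) in iWAT and from 4.16 (*Acvr1c*) to 11.52 (*Car3*) in eWAT. Some rested on as few as 2 UMIs in an ASPC library. The part of adipocyte-marker cells in the result was not tested. Of the 4 perilipins at that level, 3 were higher and 0 lower in both depots. *Plin1* and *Plin4* reached 5 CPM in the DFAT libraries alone, so at this limit they could only be counted as higher, and the count describes them without supporting their direction. In eWAT the number higher was 2 in place of 3 without cells of 3 or more adipocyte markers, and also without cells of 10 or more *Plin1* UMIs. *Plin4* then fell below 5 CPM in eWAT_DFAT, at 2.63 and 1.77 CPM, with log2 ratios of 2.91 and 2.36. The median log2 ratio of all such genes was 0.09 in iWAT and 0.07 in eWAT.

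The average difference over both depots could be tested, with the depot as a term and the unlike response of the depots as the spread, which leaves 1 residual degree of freedom. In edgeR's quasi-likelihood test on UMIs summed per library, a test chosen after seeing the data, no perilipin passed a Benjamini-Hochberg adjusted p of 0.05. *Plin1* had an average log2 ratio of 5.29 (adjusted p = 0.0759), *Plin4* 3.68 (adjusted p = 0.137), *Plin2* 1.60 (adjusted p = 0.184) and *Plin3* -0.32 (adjusted p = 0.603). Of the 10757 genes tested, 0 passed in either direction (0% higher and 0% lower), and 1708 had an unadjusted p under 0.05. Without the depot term 4 genes passed, all higher in DFAT cells (0.0372%), and none was a perilipin.

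*Plin1* (ENSMUSG00000030546, mm10 chr7:79720218-79732903, minus strand) showed the largest ratios of the family. Its level was 13.9 CPM (2555 UMIs) in iWAT_DFAT, 27.3 (5059 UMIs) in eWAT_DFAT, 0.286 (57 UMIs) in iWAT_ASPC and 0.764 (151 UMIs) in eWAT_ASPC. The 4 intervals did not overlap, and both DFAT libraries lay far above both ASPC libraries. These intervals treat UMIs as independent, while the *Plin1* UMIs were gathered in few cells, so they leave out the spread between cells. The log2 ratio of DFAT cells over ASPCs was 5.60 (5.23 to 6.01) in iWAT, or 48.7-fold, and 5.16 (4.92 to 5.40) in eWAT, or 35.7-fold. Without cells of 10 or more *Plin1* UMIs it was 5.72 (5.23 to 6.25) in iWAT and 4.21 (3.94 to 4.50) in eWAT. That step also left out 2 cells of iWAT_ASPC with 40.4% of its 57 *Plin1* UMIs. In eWAT_ASPC it left out 2 cells with 23.8% of the 151. Since the step picks cells by their *Plin1* count, the *Plin1* ratios after it are a description only. The iWAT_ASPC file names another Cell Ranger version than the other 3, which cannot be told apart from the iWAT comparison, and against eWAT_ASPC the ratio of iWAT_DFAT was 4.19. In both sources the epididymal library was the higher one, with an iWAT over eWAT log2 ratio of -0.97 (-1.04 to -0.90) in DFAT cells and -1.42 (-1.88 to -0.97) in ASPCs.

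*Plin4* (ENSMUSG00000002831, chr17:56100591-56109803, minus strand) followed *Plin1* between cell sources but not between depots. Its level was 7.68 CPM (1411 UMIs) in iWAT_DFAT, 6.38 (1185 UMIs) in eWAT_DFAT, 0.742 (148 UMIs) in iWAT_ASPC and 0.359 (71 UMIs) in eWAT_ASPC. Here the inguinal library was the higher of each pair. The log2 ratio of DFAT cells over ASPCs was 3.37 (3.13 to 3.63) in iWAT and 4.15 (3.80 to 4.52) in eWAT. The gene overlaps *Hdgfl2* on the opposite strand by 17 bases at its 3′ end. *Plin5* lies 1797 bases away on the same strand.

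*Plin2* (ENSMUSG00000028494, chr4:86648386-86670060, minus strand) was detected in most cells of every library. Its level was 233 CPM (231 to 235) in iWAT_DFAT, 315 (312 to 317) in eWAT_DFAT, 98.9 (97.6 to 100.3) in iWAT_ASPC and 72.4 (71.2 to 73.6) in eWAT_ASPC. The DFAT libraries were higher by a log2 ratio of 1.24 (1.21 to 1.26) in iWAT and 2.12 (2.09 to 2.15) in eWAT. The depots were ordered oppositely in the 2 cell sources: iWAT over eWAT was -0.43 (-0.45 to -0.41) in DFAT cells and 0.45 (0.42 to 0.48) in ASPCs. That difference was not tested, and each comparison rests on 2 libraries.

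*Plin3* (ENSMUSG00000024197, chr17:56277476-56292873, minus strand) stayed within 2-fold in all 4 comparisons. It measured 47.3 CPM in iWAT_DFAT, 29.4 in eWAT_DFAT, 43.5 in iWAT_ASPC and 44.9 in eWAT_ASPC. The eWAT_DFAT library was well below the others, iWAT_DFAT (46.3 to 48.3) was slightly above both ASPC libraries, and the intervals of the latter overlapped (42.6 to 44.4 and 44.0 to 45.9). The log2 ratio of DFAT cells over ASPCs was 0.12 (0.08 to 0.16) in iWAT and -0.61 (-0.66 to -0.56) in eWAT.

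*Plin5* (ENSMUSG00000011305, chr17:56111601-56117596, minus strand) was close to absent, with 11, 20, 5 and 3 UMIs in iWAT_DFAT, eWAT_DFAT, iWAT_ASPC and eWAT_ASPC. At 3 UMIs the count in eWAT_ASPC equals the fixed floor of 3 UMIs used here, which lay between 0.0150 and 0.0163 CPM in these libraries. The log2 ratio of DFAT cells over ASPCs was 1.26 (-0.39 to 3.13) in iWAT and 2.83 (1.07 to 5.22) in eWAT. Of the 20 UMIs in eWAT_DFAT, 15 were in the 187 cells that held 10 or more *Plin1* UMIs. Without the cells that had 3 or more adipocyte markers the eWAT ratio was 0.85 (-1.51 to 3.54).

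**Figure D1:**
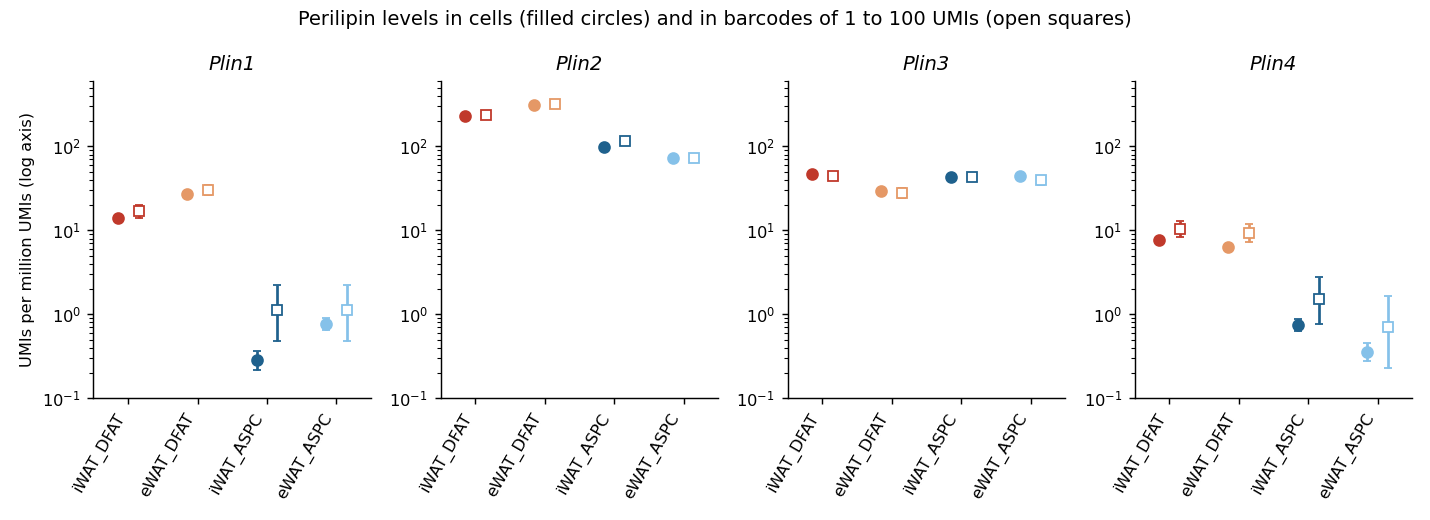
Level of *Plin1* to *Plin4* in CPM (log axis) in each of the 4 libraries, in cells (filled circles) and in barcodes of 1 to 100 UMIs (open squares), with exact 95% Poisson intervals. *Plin1* and *Plin4* are above 6 CPM in both DFAT libraries and below 1 in cells of both ASPC libraries, *Plin3* lies between 29.4 and 47.3 CPM in cells, and the squares lie above the circles for *Plin1* and *Plin4* in every library.

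Between depots, no perilipin that reached 5 CPM passed 2-fold when all cells were counted. *Plin4* did so without cells of 3 or more adipocyte markers, where its iWAT_DFAT over eWAT_DFAT log2 ratio was 1.36 (1.21 to 1.52) in place of 0.27, and without cells of 10 or more *Plin1* UMIs, at 1.68. For iWAT_DFAT over eWAT_DFAT 12.2% of genes did so in either direction, against 0 of 4 perilipins, and for iWAT_ASPC over eWAT_ASPC 6.88%, against 0 of the 2 perilipins at 5 or more CPM, *Plin2* and *Plin3*. The largest depot ratio among DFAT cells was that of *Plin1*, at 1.96-fold higher in eWAT, just inside the limit. Without cells of 10 or more *Plin1* UMIs its iWAT over eWAT log2 ratio was -0.27 (-0.36 to -0.17) in place of -0.97. That step picks cells by the *Plin1* count itself, and takes 36.0% of the *Plin1* UMIs from iWAT_DFAT and 61.5% from eWAT_DFAT. The smaller ratio thus follows from the selection and says nothing on where the depot difference lies. *Plin3* was 1.61-fold higher in iWAT_DFAT. In ASPCs, *Plin1* was 2.67-fold (1.96 to 3.69) higher in eWAT and *Plin4* 2.07-fold (1.55 to 2.78) higher in iWAT, but both were below 1 CPM and were left out of these counts. Each library enters 2 of the 4 comparisons, so the ratios are not independent.

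**Figure D2:**
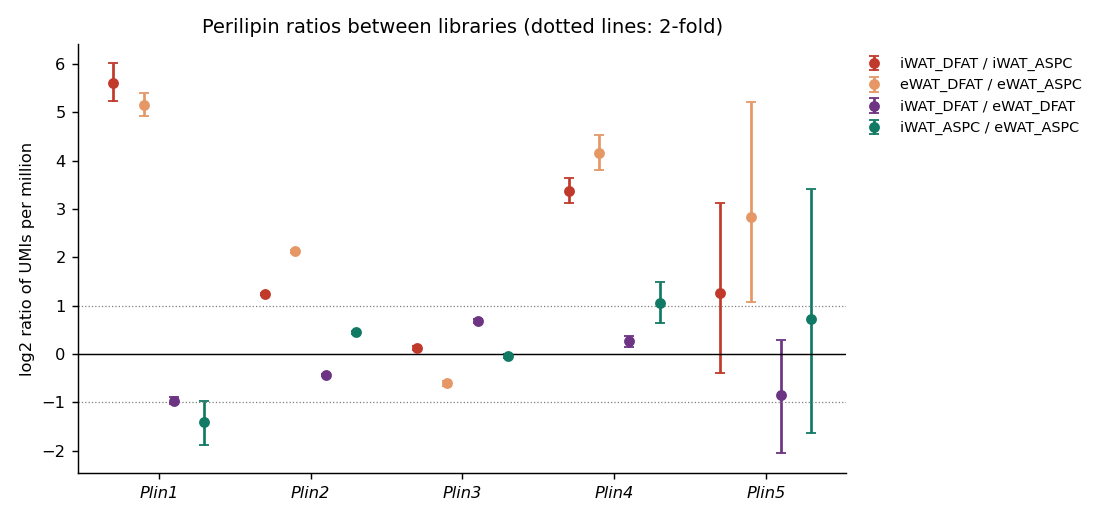
log2 ratio of CPM for each perilipin in the 4 comparisons, with exact conditional 95% intervals and dotted lines at 2-fold. The DFAT over ASPC ratios of *Plin1* (5.60 and 5.16), *Plin4* (3.37 and 4.15) and *Plin2* (1.24 and 2.12) are past the upper line, *Plin3* is on either side of 0, and the *Plin5* intervals are wide.

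The promoter windows of the 3 members that were higher in DFAT cells, and of *Plin3* for contrast, are shown because these members differ in ratio within 1 family. All 5 members matched RefSeq promoters (GRCm38.p6, the build of mm10), which span 250 bases before to 50 after the transcript start, 5′ to 3′ in the sense of the gene. Capitals mark the TATA box, the E-box and the core word of nuclear receptor sites, each spelled out after the sequences and searched on either strand.
Plin1, chr7:79732727-79733026, minus strand: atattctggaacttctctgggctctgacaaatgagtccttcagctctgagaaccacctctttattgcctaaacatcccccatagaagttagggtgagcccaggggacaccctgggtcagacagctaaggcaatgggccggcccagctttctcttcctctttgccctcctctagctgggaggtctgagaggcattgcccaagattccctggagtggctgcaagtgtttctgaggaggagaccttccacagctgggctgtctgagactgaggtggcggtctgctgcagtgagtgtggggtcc
Plin4, chr17:56109733-56110032, minus strand: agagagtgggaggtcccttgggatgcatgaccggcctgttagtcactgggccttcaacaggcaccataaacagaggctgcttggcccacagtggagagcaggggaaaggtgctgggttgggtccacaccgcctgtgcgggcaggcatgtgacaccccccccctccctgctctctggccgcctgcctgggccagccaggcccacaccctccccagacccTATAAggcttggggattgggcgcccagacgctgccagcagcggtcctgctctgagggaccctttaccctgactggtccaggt
Plin2, chr4:86670010-86670309, minus strand: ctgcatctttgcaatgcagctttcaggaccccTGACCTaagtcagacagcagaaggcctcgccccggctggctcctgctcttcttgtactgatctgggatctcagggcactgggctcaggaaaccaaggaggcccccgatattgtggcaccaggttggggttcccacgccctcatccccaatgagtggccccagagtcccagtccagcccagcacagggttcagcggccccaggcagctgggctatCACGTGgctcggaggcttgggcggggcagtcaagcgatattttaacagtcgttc
Plin3, chr17:56290462-56290761, minus strand: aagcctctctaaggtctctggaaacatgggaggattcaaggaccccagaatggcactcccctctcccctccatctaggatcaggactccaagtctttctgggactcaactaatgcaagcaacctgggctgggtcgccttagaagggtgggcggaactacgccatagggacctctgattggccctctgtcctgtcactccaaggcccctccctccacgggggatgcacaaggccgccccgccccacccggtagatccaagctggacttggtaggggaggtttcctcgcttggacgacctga
The *Plin4* window holds TATAA, with its first base at position -32 from the start, and 24.9% of all 32851 promoter windows hold this word on either strand. *Plin2* holds CACGTG, a palindrome known as an E-box, at position -4 (7.15% of windows) and the nuclear receptor word AGGTCA on the opposite strand at -218 (16.3% of windows). *Plin5*, with 2 windows that are not shown, also holds TATAA, at -27 in the first, and AGGTCA, at -170 in the first and 13 in the second. None of the 3 words occurs in the *Plin1* or *Plin3* window. The DR1 element of PPAR, made of 2 such words with 1 base between them, was in 13 of the 32851 windows and in none of the perilipin windows. GGGCGG, the GC box, was found in the *Plin2*, *Plin3* and *Plin5* windows (35.7% of windows). CCAAT, the CCAAT box, was found in the windows of all members but *Plin1* (37.4% of windows). A match is a description of letters and not a site, and these windows hold no distal elements.

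The share of cells with a UMI separated the members into a rare and a common kind. *Plin1* had a UMI in 11.1% of iWAT_DFAT cells (10.4 to 11.8), 13.7% of eWAT_DFAT cells, 0.364% of iWAT_ASPC cells and 0.875% of eWAT_ASPC cells. *Plin4* was found in 8.43%, 5.58%, 1.59% and 0.845%, in the same order. *Plin2* was found in 89.6%, 93.2%, 80.5% and 75.3%. *Plin3* was found in 63.8%, 52.5%, 63.5% and 67.0%. Since depth differed between libraries, each cell was thinned to 5000 UMIs, which left out no cell. *Plin1* then remained in 4.46% and 6.98% of iWAT_DFAT and eWAT_DFAT cells against 0.0539% and 0.178% of iWAT_ASPC and eWAT_ASPC cells. *Plin2* remained in 55.6% and 64.8% against 36.3% and 26.9%, and *Plin3* in 20.9% and 13.5% against 19.4% and 19.9%. *Plin4* remained in 2.83% and 2.24% against 0.391% and 0.208%. After thinning the order of the libraries was that of the CPM for each of these 4 members. The values depend on the random draw: another draw, added after seeing the data, left *Plin1* in 0.0943% of iWAT_ASPC and 0.267% of eWAT_ASPC cells, and turned the close pair of *Plin3* values to 19.7% in iWAT_ASPC and 19.6% in eWAT_ASPC.

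Free RNA, measured in barcodes of 1 to 100 UMIs, held *Plin2* and *Plin3* of the DFAT libraries at nearly the cells' own levels, and *Plin1* and *Plin4* at or above them. *Plin1* was at 17.0 CPM (14.1 to 20.3) in the free RNA of iWAT_DFAT, 30.1 (26.3 to 34.3) in eWAT_DFAT, 1.12 (0.484 to 2.21) in iWAT_ASPC and 1.13 (0.487 to 2.22) in eWAT_ASPC. Its cells over free log2 ratio was -0.29 (-0.55 to -0.01) in iWAT_DFAT, -0.14 (-0.34 to 0.06) in eWAT_DFAT, -1.97 (-3.05 to -0.69) in iWAT_ASPC and -0.56 (-1.58 to 0.68) in eWAT_ASPC, where the free RNA of each ASPC library held 8 *Plin1* UMIs. *Plin2* in free RNA was at 238, 317, 115 and 73.3 CPM, within 0.22 log2 units of the cells in each library. *Plin4* was higher in free RNA than in cells of both DFAT libraries, by a cells over free log2 ratio of -0.45 (-0.78 to -0.10) in iWAT_DFAT and -0.54 (-0.90 to -0.17) in eWAT_DFAT. In ASPCs this ratio was -1.05 (-1.93 to -0.02) in iWAT_ASPC and -0.97 (-2.26 to 0.70) in eWAT_ASPC, on 11 and 5 free UMIs. A share of cells with a UMI therefore has to be read against cells that should lack the gene. Marked cells here had 3 or more markers of exactly 1 of the adipocyte, endothelial, mesothelial, pericyte, glial and immune lists. Cells that also passed the adipocyte list were therefore left out. In eWAT_DFAT, 1 of 65 mesothelial-marker cells had a *Plin1* UMI, or 1.54% at a median depth of 22327 UMIs. Among all cells the share was 13.7% at 27425. In the same library 4 of 137 endothelial-marker cells did, or 2.92% at a median depth of 10475. Their *Plin1* level was 0.602 CPM (0.0152 to 3.35) and 8.68 CPM (5.14 to 13.7), both under the 27.3 CPM of all cells. In iWAT_DFAT none of 14 endothelial-marker cells had a *Plin1* UMI, and 1 of 18 glial-marker cells did. Pericyte-marker cells differed: *Plin1* had a UMI in 30 of 129 in eWAT_DFAT, or 23.3% at a median depth of 19185, and in 7 of 24 in iWAT_DFAT, or 29.2% at 22312. Their levels were 40.5 CPM (33.6 to 48.5) and 27.7 (16.1 to 44.4), above those of all cells, so *Plin1* was not low in each of the other marked classes. *Plin4* had a UMI in 5 and 1 of these cells. Outside every class were 23 eWAT_DFAT and 9 iWAT_DFAT cells that passed several lists. *Plin1* had a UMI in 9 and 3 of them, at 107 CPM (84.2 to 135) and 94.3 (54.9 to 151).

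Barcodes of 5000 or more UMIs that were left out for 10% or more mitochondrial UMIs were rich in both adipocyte members. In iWAT_DFAT, 26 such barcodes held *Plin1* at 257 CPM (206 to 316) and *Plin4* at 131 (96.1 to 175). In eWAT_DFAT, 35 of them held *Plin1* at 460.3 CPM (389.6 to 540.2) and *Plin4* at 175 (132 to 227). The 11 and 111 such barcodes of iWAT_ASPC and eWAT_ASPC held no *Plin1* UMI. A limit of 20% moved no DFAT over ASPC ratio of *Plin1* or *Plin4* out of its interval.

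The UMIs of *Plin1* and *Plin4* were held by few cells, and those of *Plin2* and *Plin3* by many. The 1% of cells with the most *Plin1* UMIs held 41.8% of them in iWAT_DFAT and 30.6% in eWAT_DFAT. For *Plin4* this share was 40.8% and 55.4%, for *Plin2* 7.98% and 7.61%, and for *Plin3* 4.93% and 6.21%. At the other extreme, 6782 iWAT_DFAT cells and 5576 eWAT_DFAT cells had no *Plin1* UMI. Cells with 10 or more *Plin1* UMIs numbered 59 in iWAT_DFAT and 187 in eWAT_DFAT, and they held 36.0% and 61.5% of the *Plin1* UMIs. In each ASPC library 2 such cells were found. After thinning, the variance over the mean (Fano factor, 1 for counts that differ by sampling alone) was 2.66 and 3.57 for *Plin1* and 1.60 and 2.65 for *Plin4* in iWAT_DFAT and eWAT_DFAT. For *Plin2* it was 2.06 and 2.37 in DFAT cells, above *Plin4* in iWAT_DFAT and below it in eWAT_DFAT, and 1.26 and 1.45 in iWAT_ASPC and eWAT_ASPC. *Plin3* was between 0.999 and 1.06 in all 4 libraries.

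**Figure D3:**
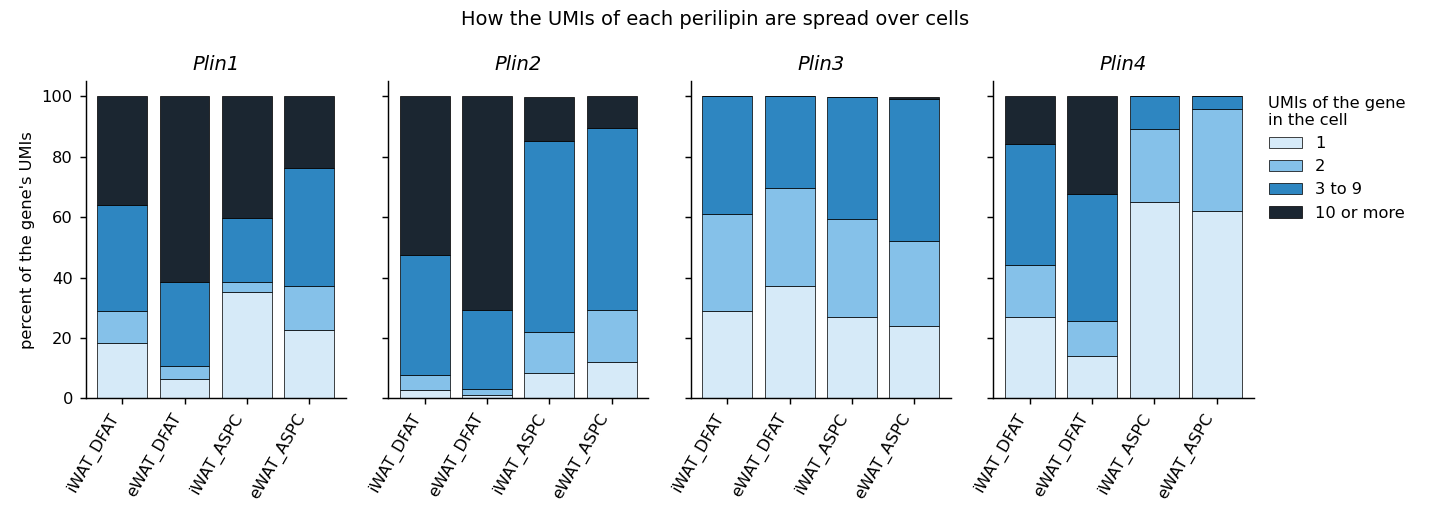
Percent of the UMIs of *Plin1* to *Plin4* (stacked to 100) held by cells with 1, 2, 3 to 9 or 10 or more UMIs of that gene, in each library. Cells with 10 or more UMIs carry 36.0% and 61.5% of *Plin1* and 52.6% and 70.6% of *Plin2* in iWAT_DFAT and eWAT_DFAT, and at most 0.721% of *Plin3* in any library.

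Cells with UMIs of 3 or more adipocyte markers, and of fewer than 3 on each of the endothelial, mesothelial, pericyte, glial and immune lists, numbered 17 in iWAT_DFAT, 119 in eWAT_DFAT and 1 in each ASPC library. *Car3* was the most abundant of these markers in both DFAT libraries, and the list also holds *Adipoq* and *Cidec*. In these cells *Plin1* was at 735 CPM (655 to 821) in iWAT_DFAT and 654 (623 to 685) in eWAT_DFAT, and *Plin4* at 388 (330.2 to 452) and 255 (237 to 275). *Plin2* was at 859 and 705 CPM, while *Plin3* stayed at 52.6 (33.0 to 79.7) and 28.1 (22.2 to 35.2), close to its library level. They held 12.0% of all *Plin1* UMIs in iWAT_DFAT and 34.9% in eWAT_DFAT, and 11.5% and 58.2% of the *Plin4* UMIs. The remaining *Plin1* UMIs were mostly in cells of none of the 6 marked classes, at 12.2 CPM (11.7 to 12.7) in iWAT_DFAT and 17.6 (17.0 to 18.2) in eWAT_DFAT, against 0.199 and 0.674 in iWAT_ASPC and eWAT_ASPC. Without all cells of 3 or more adipocyte markers the DFAT over ASPC log2 ratio of *Plin1* was 5.72 in iWAT and 4.71 in eWAT, and that of *Plin4* in eWAT was 2.91 (2.54 to 3.30) in place of 4.15. That step also left out 1 iWAT_ASPC cell with 19.3% of the *Plin1* UMIs of its library, and 1 eWAT_ASPC cell with 11.3%. The iWAT ratio therefore does not measure the part of these cells in iWAT_DFAT. The iWAT over eWAT log2 ratio of *Plin1* in DFAT cells became -0.54 (-0.62 to -0.46) in place of -0.97.

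Cells were also divided by 8 cell cycle markers, such as *Top2a*. Among cells of none of the marked classes, *Plin1* was at 6.61 CPM (6.12 to 7.12) where 3 or more cycling markers had a UMI and at 19.8 (18.8 to 20.8) elsewhere in iWAT_DFAT. In eWAT_DFAT the values were 10.7 (10.1 to 11.3) and 30.7 (29.3 to 32.1). *Plin4* followed the same order, at 4.85 and 9.42 CPM in iWAT_DFAT and 1.69 and 4.57 in eWAT_DFAT. *Plin2* was level in iWAT_DFAT, at 231 (229 to 234) and 232 (229 to 236) CPM, but lower in the cycling-marker cells of eWAT_DFAT, at 267 against 395. *Plin3* was at 42.3 against 54.0 CPM in iWAT_DFAT and 26.8 against 33.5 in eWAT_DFAT. The cycling-marker cells were deeper in both libraries (medians of 26475 against 19239 and 30397 against 24740 UMIs), and the part of depth in these values was not tested.

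*Plin2* was also high in the immune-marker cells of the ASPC libraries. In the 28 cells of eWAT_ASPC with 3 or more immune markers, led by the lysozyme gene *Lyz2* in that library, it was at 646 CPM (584 to 712) against 66.8 (65.6 to 68.0) in cells of no marked class. The 5 such cells of iWAT_ASPC held it at 624 CPM (501 to 768). In the DFAT libraries the intervals of these cells held the level of the cells of no marked class. *Plin2* was at 372 CPM (286 to 474) in 5 cells of eWAT_DFAT, against 311, and at 358 (155 to 706) in 2 cells of iWAT_DFAT, against 232. All 8 *Plin2* UMIs of these iWAT_DFAT cells were in 1 of the 2. The eWAT_DFAT interval lies below both ASPC intervals, and that of iWAT_DFAT overlaps them. These intervals treat UMIs as independent and leave out the spread between so few cells, so a difference between cultures was not tested. The 500 mesothelial-marker cells of eWAT_ASPC held *Plin2* at 123 CPM (116 to 129) and had no *Plin4* UMI, with an upper 95% bound of 0.297 CPM. The 141 glial-marker cells of iWAT_ASPC held *Plin3* at 78.0 CPM (66.6 to 90.8) against 43.2 (42.2 to 44.1) in cells of no marked class.

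*Plin4* was found more often in DFAT cells with *Plin1* than in those without. After thinning, *Plin4* had a UMI in 22.4% (18.0 to 27.2) of the 340 iWAT_DFAT cells with *Plin1* and in 1.92% (1.62 to 2.26) of those without. In eWAT_DFAT the shares were 27.3% (23.2 to 31.6) of 451 cells and 0.366% (0.229 to 0.553). *Plin2* had a UMI in 68.5% of *Plin1* cells against 54.9% of the others in iWAT_DFAT, and in 88.5% against 63.0% in eWAT_DFAT. Between *Plin2* and *Plin3* the intervals overlapped in both DFAT libraries: *Plin2* was in 54.8% (52.4 to 57.3) of cells with *Plin3* and 55.7% (54.5 to 57.0) of cells without it in iWAT_DFAT, and in 66.2% (63.0 to 69.4) and 64.6% (63.3 to 65.8) in eWAT_DFAT. In iWAT_ASPC they did not overlap, at 39.7% (37.2 to 42.3) of cells with *Plin3* and 35.5% (34.3 to 36.8) without it, and in eWAT_ASPC they did, at 28.6% (26.2 to 31.1) and 26.5% (25.3 to 27.7).

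The partners of the perilipins were set beside *Plin1* by grouping DFAT cells at 0, 1 to 2, 3 to 9 and 10 or more *Plin1* UMIs, a grouping chosen after values had been seen and given as a description. Median depth differed little over these groups, from 21248 to 24111 UMIs in iWAT_DFAT and from 26994 to 30521 in eWAT_DFAT. From the lowest to the highest group *Plin4* went from 3.42 to 255 CPM in iWAT_DFAT and from 0.505 to 165 in eWAT_DFAT, and *Plin2* from 219 to 802 and from 266 to 875. *Plin3* lay between 46.7 and 52.0 CPM in the 4 groups of iWAT_DFAT and between 26.9 and 34.8 in those of eWAT_DFAT. Its lowest and highest *Plin1* groups overlapped, but the group without *Plin1* was below that with 1 to 2 UMIs in iWAT_DFAT (45.7 to 47.8 against 48.4 to 55.8) and below that with 3 to 9 in eWAT_DFAT (28.4 to 30.1 against 30.9 to 39.0). *Pnpla2*, which encodes the lipase ATGL, went from 9.39 to 327 CPM in iWAT_DFAT and from 11.7 to 327 in eWAT_DFAT. *Lipe*, hormone-sensitive lipase, went from 4.01 to 198 and from 1.73 to 213, and *G0s2*, an inhibitor of ATGL, from 3.80 to 755 and from 11.8 to 831. *Abhd5* changed less, from 30.8 to 167 and from 25.3 to 119 CPM. *Hilpda*, another ATGL inhibitor, varied far less, between 31.8 and 36.6 CPM in iWAT_DFAT and between 28.4 and 34.4 in eWAT_DFAT. *Pparg* went from 36.2 to 418 CPM in iWAT_DFAT and from 47.9 to 434 in eWAT_DFAT. *Fabp4*, a fatty acid carrier of adipocytes, reached 15766 and 26804 CPM, and *Cidec*, which fuses droplets, 57.7 and 192. *Col1a1* ran the other way, from 1591 to 378 and from 743 to 145 CPM. *Pdgfra*, a receptor that marks ASPCs, had no such steady order. Over the 4 groups it was at 241, 291, 295 and 177 CPM in iWAT_DFAT and at 98.2, 80.5, 86.0 and 56.8 in eWAT_DFAT, lowest in the group with the most *Plin1* in both. In the 59 iWAT_DFAT cells of the highest group, 44.1% had no UMI of any of the 9 adipocyte markers and 27.1% had 3 or more, and in the 187 eWAT_DFAT cells 16.0% and 46.5%.

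**Figure D4:**
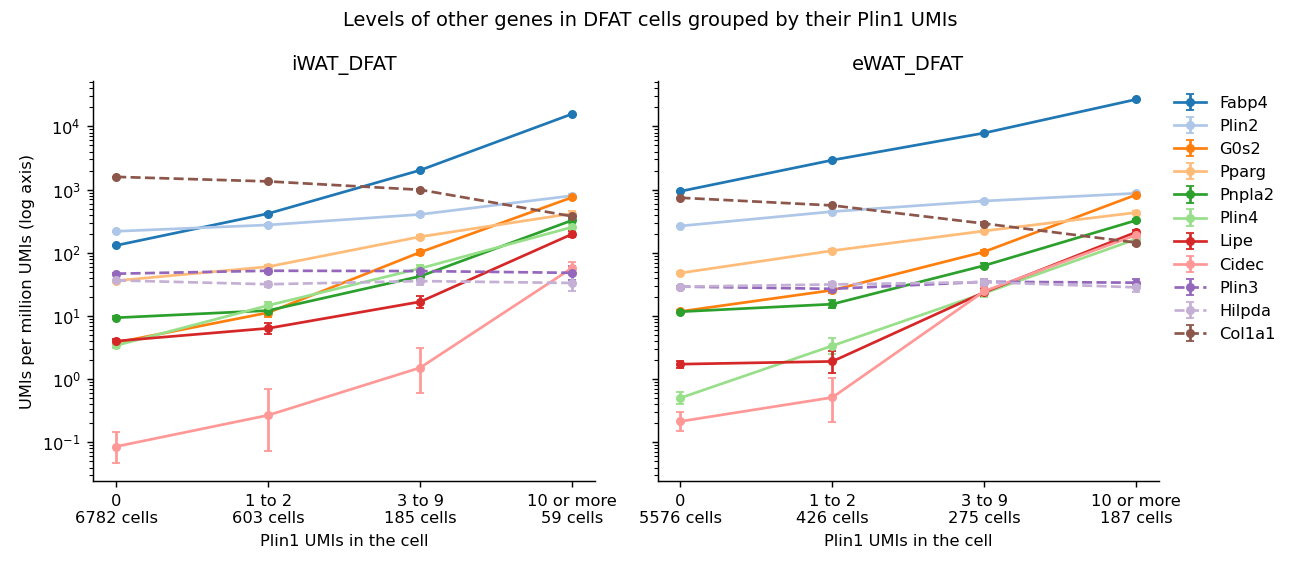
CPM (log axis) of 11 genes in DFAT cells grouped by their *Plin1* UMIs, with the number of cells below each group and exact 95% Poisson intervals. Solid lines for *Plin4*, *Plin2*, *Pparg*, *Fabp4*, *Cidec* and the lipolysis genes climb to the right, while dashed lines for *Plin3* (26.9 to 52.0 CPM) and *Hilpda* (28.4 to 36.6) change far less and *Col1a1* descends to 378 CPM in iWAT_DFAT and 145 in eWAT_DFAT.

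Across single cells the genes most like each member were listed by Pearson correlation of log-scaled counts, which is weakened by sparse counts and shares depth and library with each member. For *Plin2*, among 8983 genes at 5 or more CPM in every library, the 5 with the highest mean over the 4 libraries were *Prdx1* (0.29), *Ftl1* (0.28), *Hmox1* (0.28), *Lgals3* (0.27) and *Cyb5a* (0.26). These means cover unlike libraries: *Prdx1* was at 0.43 in iWAT_DFAT, 0.41 in eWAT_DFAT and 0.15 in each ASPC library, and *Cyb5a* ranged from 0.09 in eWAT_ASPC to 0.45 in eWAT_DFAT. *Ftl1* ranged from 0.16 to 0.44, *Hmox1* from 0.20 to 0.38 and *Lgals3* from 0.17 to 0.37. *Hmox1*, *Prdx1* and *Ftl1* encode heme oxygenase, a peroxidase and the ferritin light chain. For *Plin3* no gene exceeded a mean of 0.11, that of *Gabarap* (0.11 to 0.12 over the libraries) and *Ahnak2* (0.06 to 0.15), followed by *Ctsd*, *Tle5* and *Ypel3*. In the DFAT libraries alone, added after values had been seen, *Plin4* had the highest mean correlation with *Plin1* among 9444 candidate genes. It was at 0.55 across the 7629 iWAT_DFAT cells and 0.74 across the 6464 eWAT_DFAT cells. Genes outside these candidates were not ranked. *Cd36*, a fatty acid transporter, came next for *Plin1*, at 0.55 in iWAT_DFAT and 0.69 in eWAT_DFAT, followed by *G0s2*, *Cdo1* and *Fabp4*. For *Plin4* the highest mean was that of *Plin1*, followed by *Lipe*, *G0s2*, *Cdo1* and *Pnpla2*. In eWAT_DFAT alone *Lipe* was above *Plin1*, at 0.78 against 0.74, and in iWAT_DFAT below it, at 0.37 against 0.55.

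The pathway around the perilipins was described by 8 lists of 79 genes on droplets, triglyceride and PPAR, of which 78 were in the files. In iWAT, 62 of them were at 5 or more CPM in either library, 15 were at least 2-fold higher and 6 lower in DFAT cells than in ASPCs, with a median log2 ratio of 0.29 against 0.09 for all genes. In eWAT the counts were 11 higher and 8 lower of 63, with a median of 0.21 against 0.07. Between depots, 5 were higher and 5 lower in iWAT_DFAT than in eWAT_DFAT of 61, and 2 were higher and 5 lower in iWAT_ASPC than in eWAT_ASPC of 58, beside 12.2% and 6.88% of all genes in either direction. Of all genes, 9.91% were that much higher and 5.18% lower in iWAT, and 6.44% and 6.67% in eWAT. Some counted genes reached 5 CPM only in the library where they were higher. *Lipe*, *Dgat2* and *Cd36* did so in both DFAT libraries, and *Cidec* and *Pdk4* in eWAT_DFAT. *Fabp3* did so in both ASPC libraries and *Mettl7a1* in eWAT_ASPC. Between depots, *Cidec* did so in eWAT_DFAT and *Ucp2* in eWAT_ASPC. The limit fixed the direction of these genes, so the counts here and by list below describe them without supporting it.

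Of 6 lipolysis enzymes and cofactors, 1 was higher and 1 lower in each depot. The higher one was *Lipe*, which reached 5 CPM in the DFAT libraries alone and could only be counted as higher. *Pnpla2* was within 2-fold in both depots, at 13.0 CPM in iWAT_DFAT and 12.0 in iWAT_ASPC, and at 23.2 in eWAT_DFAT and 16.2 in eWAT_ASPC. *Abhd5* was also within 2-fold, with DFAT over ASPC log2 ratios of 0.22 in iWAT and 0.15 in eWAT. *Lipe* was higher in DFAT cells by 1.74 (1.57 to 1.92) and 1.84 (1.70 to 1.99), and *Mgll*, the monoglyceride lipase, was lower at -1.08 in both depots. Of 3 inhibitors, 1 was lower in iWAT and 1 higher in eWAT. *G0s2* was lower in DFAT cells, at 12.9 CPM against 26.2 in iWAT and 40.2 against 76.0 in eWAT, although it was highest in the *Plin1*-rich cells of the DFAT libraries. *Hilpda* had log2 ratios of 0.91 in iWAT and 0.86 in eWAT, and *Pde3b*, the phosphodiesterase through which insulin restrains lipolysis, -0.84 in iWAT and 1.24 in eWAT.

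Of 7 fatty acid uptake genes, 3 were higher and 1 lower in iWAT, and 2 were higher and 2 lower in eWAT. *Cd36* had log2 ratios of 3.51 (3.28 to 3.74) in iWAT and 4.81 (4.69 to 4.94) in eWAT, and *Fabp4* 2.01 and 2.68. *Fabp5*, a related fatty acid carrier, was lower at -2.01 and -1.35. Of 11 triglyceride synthesis genes at 5 or more CPM, 4 were at least 2-fold higher and 0 lower in iWAT, and 3 were higher and 1 lower in eWAT. *Acsl4*, an acyl-CoA synthetase, had 2.34 and 2.24, *Pcx*, pyruvate carboxylase, 2.04 and 1.78, and *Dgat2*, which makes triglyceride, 2.50 and 1.14. None of 6 droplet formation genes passed 2-fold, with *Lpin1* at 0.65 and 0.71, *Fitm2* at 0.57 and 0.58 and *Lpin2* at 0.78 and 0.31. Of the droplet fusion and coat genes other than the perilipins, 1 was higher and 1 lower in each depot, out of 10 in iWAT and 11 in eWAT. In eWAT these were *Cidec* and *Mettl7a1*, each at 5 or more CPM in its higher library alone, so the limit fixed their direction. *Cidec* rested on 110 UMIs in iWAT_DFAT, 1257 in eWAT_DFAT, 4 in iWAT_ASPC and 14 in eWAT_ASPC. The caveolar genes *Cav1* (1.26 and 0.31) and *Cavin2* (-2.67 and -0.46) and the droplet protein gene *Mettl7a1* (-0.40 and -1.24) each passed 2-fold in 1 depot only.

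*Pparg* was at 44.8 CPM in iWAT_DFAT, 71.1 in eWAT_DFAT, 17.8 in iWAT_ASPC and 8.21 in eWAT_ASPC. Like *Plin2*, it was highest in eWAT_DFAT and lowest in eWAT_ASPC, with DFAT over ASPC log2 ratios of 1.33 (1.28 to 1.39) in iWAT and 3.12 (3.04 to 3.19) in eWAT. Of 6 PPAR regulators and partners, 5 were higher in iWAT, and 1 was higher and 1 lower in eWAT. *Ppard* had 1.56 and 0.87, and *Cebpd*, an early adipogenic factor, 1.13 in iWAT and -1.31 in eWAT. Of 13 PPAR targets at 5 or more CPM other than the perilipins, 1 was higher and 2 were lower in iWAT, and 2 were higher and 2 lower in eWAT. The median log2 ratio of this list was 0.20 in iWAT and 0.21 in eWAT, beside 0.09 and 0.07 for all genes. *Angptl4* had 1.35 and 1.21, *Acot2* -1.64 and -1.36, and *Fabp3* -3.02 and -1.14.

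**Figure D5:**
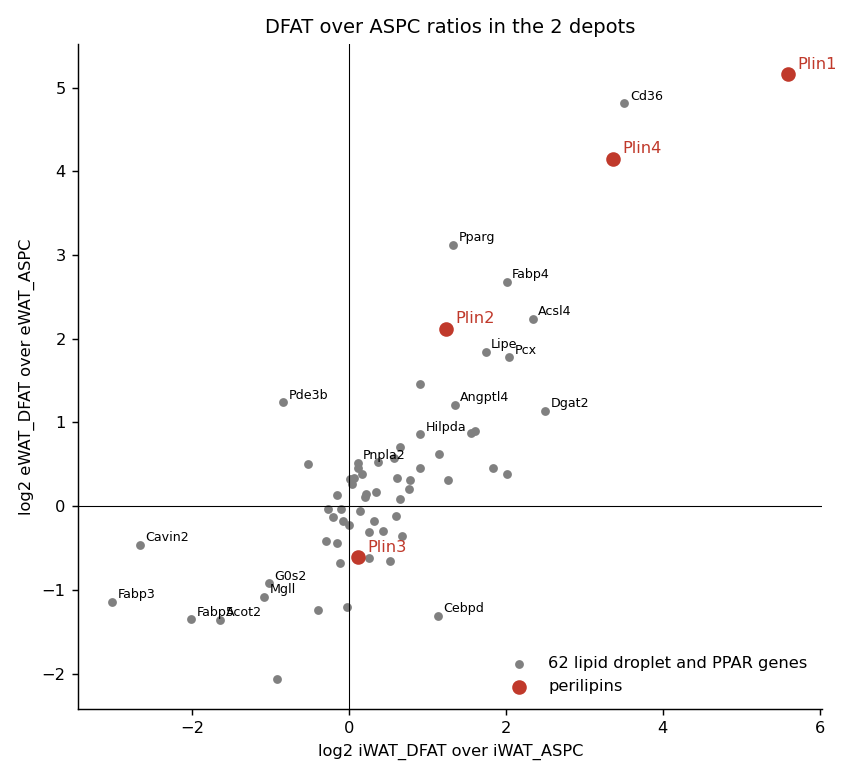
log2 DFAT over ASPC ratio in iWAT (horizontal) against eWAT (vertical) for 62 lipid droplet and PPAR genes at 5 or more CPM in both depots (grey) and for *Plin1* to *Plin4* (red). *Plin1* (5.60 and 5.16) and *Plin4* (3.37 and 4.15) lie at the upper right beside *Cd36* (3.51 and 4.81). *Plin2* (1.24 and 2.12) lies near *Lipe* (1.74 and 1.84), and *Plin3* lies near the centre.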

How the data were processed

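Droplet-based 3′ single-cell RNA sequencing counts of 4 libraries, 1 per condition, were analysed. The values deposited by the authors are raw UMI counts per gene and barcode, empty droplets included. The Methods name Cell Ranger with introns included and mm10. The file headers give Cell Ranger 7.1.0 for 3 libraries and version 4 for iWAT_ASPC, and the submitters' processing notes give 7.0.0. The version cannot be told apart from the comparisons with iWAT_ASPC. For genes of 100 kb or more and under 10 kb, the median log2 ratio was 0.31 and -0.07 for iWAT_DFAT over iWAT_ASPC, 0.15 and -0.02 for eWAT_DFAT over eWAT_ASPC, 0.29 and -0.04 for iWAT_DFAT over eWAT_DFAT, and 0.13 and -0.01 for iWAT_ASPC over eWAT_ASPC. CellBender and DoubletFinder were not run. No doublets were removed, and leaving out the 6% of cells with the most UMIs was an alternative. No per-sample columns were left out.

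The members and lists were chosen with earlier results of these data known. Named genes are the members, 8 partners (*Pnpla2*, *Abhd5*, *Lipe*, *G0s2*, *Hilpda*, *Cidec*, *Pparg*, *Fabp4*), the 3 largest ratios per list in the depot where the ratio is smaller, the 5 genes most alike, neighbours, and leading markers. *Cdo1*, *Lep*, *Pdgfra*, *Adrb3*, *Thrsp*, *Adipoq*, *Retn*, *Acvr1c*, *Cfd*, *Pdk4* and *Ucp2* were added after values were seen. So were the cells grouped by *Plin1* UMIs and the likeness of *Plin1* and *Plin4*. Levels are UMIs summed over cells per 1000000 UMIs. Intervals are exact: Poisson for CPM, Clopper-Pearson for percentages and a conditional binomial for log2 ratios. They cover counting error only. Ratios of levels were called at 2-fold among genes at 5 or more CPM. UMIs summed per library were also tested for the average DFAT over ASPC difference with edgeR 4.0.16 (R 4.3.3, quasi-likelihood, TMM scaling, Benjamini-Hochberg adjustment), with and without depot as a term, among genes at 5 or more CPM in any library. This test was added after values were seen. The lists of cell type markers were those for adipocytes, ASPCs, endothelial, mesothelial, pericyte, glial, immune and cycling cells, with a minimum of 3 markers. A cell was put in a class when it passed this minimum for exactly 1 of the adipocyte, endothelial, mesothelial, pericyte, glial and immune lists. Promoters came from RefSeq and gene positions from GENCODE. Work was done in Python 3.11.15 (scipy 1.17.1, numpy 2.4.6, matplotlib 3.10.9 and pandas 2.3.3), and the code of the intervals and of the edgeR fit was tested on simulated data. Those counts were drawn independently for each gene and library. They did not hold the gathering of UMIs in few cells seen here, so they check the code alone.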

Additional observations from a re-analysis of the deposited data

Results flagged for a closer look

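*Plin3* had opposite signs in the 2 depots: the DFAT over ASPC log2 ratio was 0.12 in iWAT and -0.61 in eWAT, with counting intervals on either side of 0. *Plin2* had opposite depot orders in the 2 cell sources: iWAT over eWAT was -0.43 in DFAT cells and 0.45 in ASPCs. Neither difference was tested, since 1 library per condition leaves no spread for it. Under median-of-ratios scaling the iWAT ratio of *Plin3* was 0.04 (-0.01 to 0.08), an interval that spans 0, and the eWAT ratio -0.78.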

How the results depend on the processing

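Each condition has 1 library, so no replicate could be left out. In edgeR's quasi-likelihood test over both depots, with the depot as a term, 0 genes passed an adjusted p of 0.05, and without that term 4 did, all higher in DFAT cells. The depots are not replicates, so the spread in this test is that between depots and not between cultures. The average log2 ratios without the depot term were 5.21 for *Plin1*, 1.61 for *Plin2*, -0.29 for *Plin3* and 3.60 for *Plin4*, and no perilipin passed. Of the 185 log2 ratios recomputed under the alternatives, 154 stayed within the counting interval and 31 moved outside it. In 0 of them did the sign change where the main interval excluded 0. Calls at 2-fold did change, as follows. The number of perilipins at least 2-fold higher in iWAT_DFAT than in eWAT_DFAT was 1 in place of 0, both without cells of 3 or more adipocyte markers and, chosen after seeing the data, without cells of 10 or more *Plin1* UMIs (*Plin4* in each). In eWAT_DFAT over eWAT_ASPC the number higher was 2 in place of 3 under both, since *Plin4* fell below 5 CPM. At a fold of 1.5, in place of 0 each, 1 perilipin was higher and 1 lower in iWAT_DFAT than in eWAT_DFAT, and 1 was lower in eWAT_DFAT than in eWAT_ASPC. For the lipid droplet and PPAR genes at a fold of 1.5, 25 in place of 15 were higher in iWAT_DFAT than in iWAT_ASPC. Between DFAT depots 12 were higher in iWAT and 10 lower, in place of 5 and 5, and between ASPC depots 5 in place of 2 were higher in iWAT. With genes at 1 or more CPM, 8 in place of 5 were lower in iWAT_DFAT than in eWAT_DFAT. With eWAT_ASPC in place of iWAT_ASPC, chosen after seeing the data, 3 perilipins were higher in iWAT_DFAT, with *Plin1* at 4.19, *Plin2* at 1.69 and *Plin4* at 4.42. Without cells of 10 or more *Plin1* UMIs the eWAT ratio of *Plin4* was 2.36. The iWAT over eWAT ratio of *Plin5* in DFAT cells went from -0.85 to 0.84 without adipocyte-marker cells, with intervals spanning 0. The cause of these shifts was not tested. Median-of-ratios scaling moved the median of all genes in eWAT from 0.07 to -0.10. The study's lower limit of 500 UMIs kept 6988 to 7843 cells per library.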
